A study of Mus musculus with 18 samples.

Results

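Untreated neurosphere-derived cultures were compared between the later and the earlier time point of the series. The 4 arrays labelled as controls at 24 h, replicates 1 to 4, were set against the 2 arrays labelled as controls at 6 h, so that 6 of the 18 arrays of the series entered the comparison. All probe sets with a mean signal of at least 100 in either group were described, which left 17518 probe sets, and 9715 genes when each gene was taken by its brightest probe set. Neither group received trichostatin A (TSA) or BMP2, the agents given to 10 other arrays, and 2 further untreated arrays at 24 h, replicates 5 and 6, were kept as a group of their own.

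The cells were grown from the lateral and medial ganglionic eminences of C57BL/6 mouse embryos at embryonic day 15.5, for 7 days as floating neurospheres with EGF and bFGF, and were then dissociated and plated on polyornithine in medium that lacked EGF and held 1% fetal calf serum. According to the labels the medium was changed after 2.5 days to one without bFGF, and RNA was taken 6 h or 24 h into the treatments that the parallel cultures received. The text of the study, in contrast, starts the treatments before bFGF was withdrawn. Whether the 6 h cultures still held bFGF is therefore not settled by these sources. The label sets no embryos, litters or culture dates apart. The p-values and standard errors use 1 spread, pooled within 7 groups of all 18 arrays, treated ones included. This spread may be technical. Since the arrays read RNA from whole dishes, fewer cells of a type and less RNA per cell cannot be told apart.

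Neurospheres are clones and aggregates of dividing precursors that stay immature while EGF and bFGF are present. When the factors are withdrawn and the cells attach, they leave the cell cycle and mature into neurons, astrocytes and oligodendrocytes. Oligodendrocytes pass from a dividing precursor through a premyelinating stage, in which the first myelin enzymes and Mbp are already made, to a stage in which late myelin proteins such as Mog are produced.

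The arrays did not form 2 even groups. Over the 17518 probe sets the 6 h arrays correlated at r = 0.981 (log2 scale, across probe sets, which are not independent), replicates 1 and 2 of 24 h at 0.974 and replicates 3 and 4 at 0.983, whereas arrays of the first 24 h pair correlated with those of the other at 0.950 to 0.963. The second 6 h array was at least as close to 24 h replicates 3 and 4, at 0.963 to 0.965, as the 24 h pairs were to each other. The bacterial spike-in transcripts, added in fixed amounts and read by 14 probe sets, had a mean signal of 280 and 328 on the 6 h arrays and of 515 to 720 on 24 h replicates 1 to 4. The ratio of the 3′ to the 5′ probe sets of Actb, a measure of RNA integrity and labelling, was 1.21 to 1.24 at 6 h and 1.37 to 1.85 at 24 h, without overlap, and that of Gapdh was 0.955 to 0.970 and 0.932 to 1.11. Both measures moved with the time point. A fit with the spike-in signal as a covariate is given beside the results, and the part of the 3′ to 5′ ratio was not tested.

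**Figure D1:**
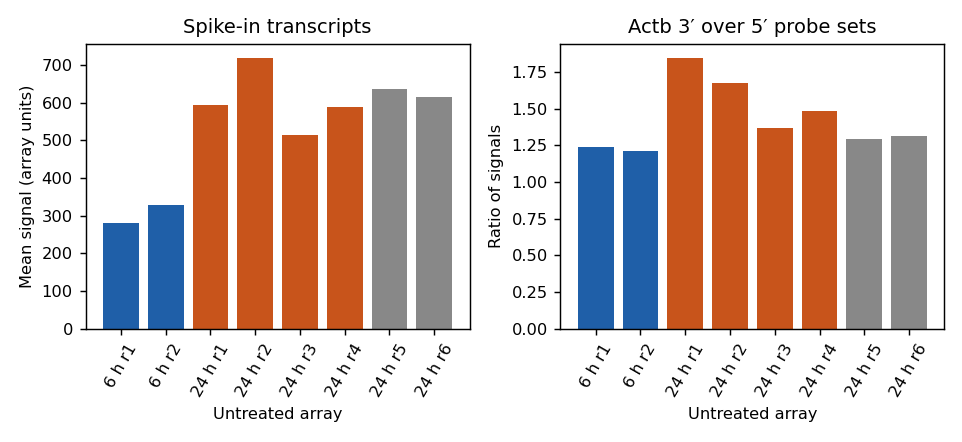
Mean signal of the spike-in transcripts (left, array units after quantile normalization) and ratio of the 3′ to the 5′ Actb probe sets (right) on each untreated array; r1 to r6 are replicate numbers, blue is 6 h, orange is 24 h replicates 1 to 4 and grey is 24 h replicates 5 and 6. Every 24 h bar of the left panel stands above both 6 h bars, and in the right panel 24 h replicate 1 is the highest at 1.85.

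Between 6 h and 24 h, 1016 of the 9715 genes passed an adjusted p of 0.05 in limma (10.5% called), 451 higher at 24 h (4.64%) and 565 lower (5.82%). By probe sets, 1734 of 17518 were called (9.9%), 710 higher (4.05%) and 1024 lower (5.85%), and 4769 had an unadjusted p under 0.05. Most differences were modest: 77 of the genes called higher and 71 of those called lower differed at least 2-fold, and the median size was 0.59 log2 units for the rises and 0.64 for the falls. The balance of directions depended on the scaling. With quantile normalization 44.4% of the called genes were higher, and with scaling to the array median 67.3% were (788 higher and 383 lower). The largest rises were Mal, Mog, S1pr3, Ermn, Apod, Ccn2, Erbb3, Rcan2, Osmr and Tmod1, and the largest falls Lrrc4b, Ptms, Maz, Tubb3, Cxcl14, Nell2, Pfn1, Ap2a1, Scaf1 and Sox8. Each difference below is given in log2 units with its standard error, for 4 arrays at 24 h against 2 at 6 h, and refers to log2(signal + 32), which understates the change of dim genes. Genes are said to have risen or fallen only where they passed the limma test. A gene with a mean under 100 at 6 h was measured only through its 24 h mean. Such a gene could only count as higher, and the reverse held for genes under 100 at 24 h. Groups without overlap were found for 41.6% of all tested genes, 23.2% higher and 18.4% lower.

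**Figure D2:**
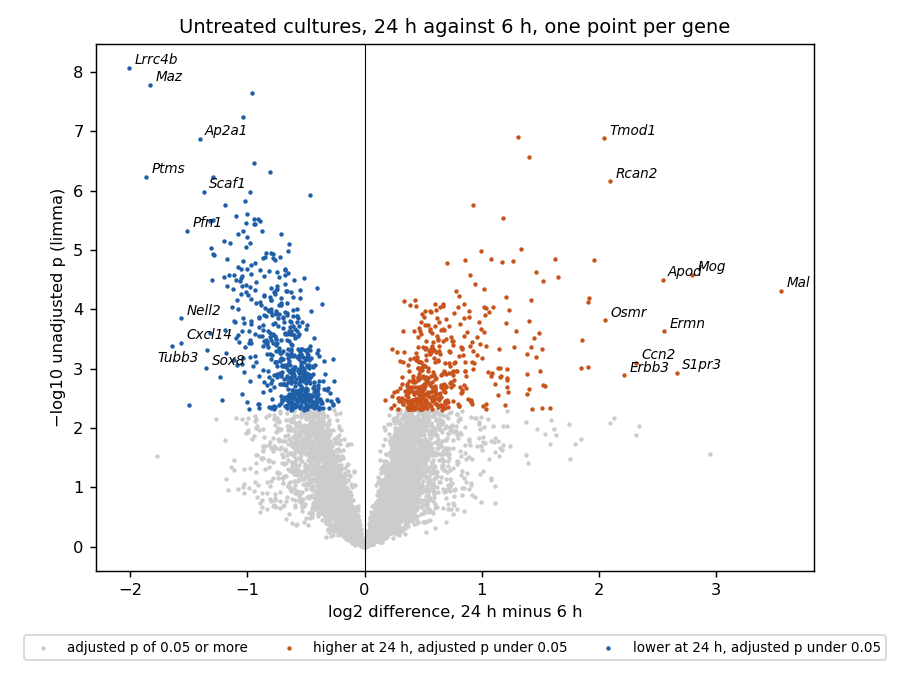
Difference between 24 h and 6 h (x axis, log2 units) and −log10 of the unadjusted limma p (y axis), with 1 point for each of the 9715 genes; orange marks the 451 genes called higher and blue the 565 called lower. The 10 largest rises and the 10 largest falls are named, with Mal at 3.55 on the right and Lrrc4b at -2.01 on the left.

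The number of calls rested on the first 6 h array. Leaving it out left 55 probe sets called, 8 higher and 47 lower, and leaving out the second 6 h array left 431, whereas without one of the 24 h arrays 983 to 1564 were called (983 without 24 h replicate 1). Of the 86 named genes that were called, 11 were still called without the first 6 h array: Ap2a1, Bak1, Cd44, Lrrc4b, Maz, Mt3, Pfn1, Ptms, Rcan2, Scaf1 and Tmod1. All 85 that could be fitted had the same direction. Groups did not overlap in 1012 of the 1016 called genes, so leaving out an array could hardly change a direction. With the spike-in signal as a covariate, 29 of the 86 were still called and all 86 had the same direction. In limma over the 6 compared arrays alone 51 of the 86 were still called. Tubb3, Erbb3 and Cxcl14 were among those lost (adjusted p = 0.0571, 0.0615 and 0.0518). Arrays of equal number and time deviated together across treatments, with residual correlations of 0.44 to 0.59 between controls and TSA at 24 h and of 0.74 (BMP2) and 0.59 (TSA) at 6 h. With such arrays as a random block, 75 of the 86 were still called, and Ccne1, Dnajb4, Ephb3, Foxo3, Irf1, Jund, Mcm10, Pcdh15, Pdgfc, Rrm2b and Syp were not, with adjusted p of 0.0544 to 0.0901. The 24 h pairs also differed in number, with 2540 probe sets called for replicates 1 and 2 alone and 812 for replicates 3 and 4 alone.

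Late myelin genes rose, and of the 38 gene lists the myelin list had the highest share of measured members called (35.3%). Of 17 measured genes of the myelin list, 6 rose and none fell, against 4.64% and 5.82% of all genes. All 17 differences were positive, with a median of 1.06 log2 units beside 0.04 over all genes. Mog, Nkx6-2 and Gjb1, among the 6 rises, had 6 h means under 100 and were measured only through 24 h. Mal, a membrane proteolipid of compact myelin, had signals of 15.9 and 201 at 6 h and of 1540.1, 1145, 1003 and 1198 at 24 h, a difference of 3.55 ± 0.63 (adjusted p = 0.00452). The 24 h arrays all lay above both 6 h arrays, and the second 6 h array was already above the first. Mog, the myelin oligodendrocyte glycoprotein of the outer myelin surface, went from 16.8 and 87.3 to 962, 264, 429 and 545, a difference of 2.79 ± 0.47 (adjusted p = 0.00327). Ermn, a cytoskeletal protein of mature oligodendrocytes, went from 30.1 and 172 to 710.3, 396, 873 and 630.0, a difference of 2.55 ± 0.53 (adjusted p = 0.00979). For all 3 genes the groups did not overlap, which the choice of the largest rises required. A dimmer probe set of Mal and one of Ermn were also called, at 2.24 and 2.27.

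Car2, the carbonic anhydrase of oligodendrocytes, rose from 759 and 1086 to 2757, 1716, 1811 and 1756 (difference 1.09 ± 0.27, adjusted p = 0.0235). Nkx6-2, a homeobox factor of maturing oligodendrocytes, rose from 28.9 and 60.6 to 104, 113, 161 and 127 (difference 1.06 ± 0.20, adjusted p = 0.00677). Gjb1, the connexin of myelin loops, had signals of 13.8 and 48.1 at 6 h and 162, 47.4, 126 and 127 at 24 h and passed the test at 1.21 ± 0.32 (adjusted p = 0.0314), although its lowest 24 h array lay just under the higher 6 h array. Erbb3, a neuregulin receptor, and Apod, an apolipoprotein that mature oligodendrocytes make, were among the largest rises outside the list. Erbb3 went from 35.9 and 264 to 838, 613, 711 and 417 (difference 2.21 ± 0.56, adjusted p = 0.0249) and Apod from 29.4 and 70.5 to 797, 277, 312 and 488 (difference 2.54 ± 0.43, adjusted p = 0.00361).

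Other myelin genes did not pass the test. Mobp, another protein of compact myelin, had one of the largest differences, 2.94 ± 1.20 (adjusted p = 0.131), with 113 and 1709 at 6 h and 4411, 3062, 4022 and 3936 at 24 h, so that the 6 h arrays lay far apart. Tspan2 gave 1.47 ± 0.50 (adjusted p = 0.0762), Omg 1.06 ± 0.34 (adjusted p = 0.0619) and Aspa 0.82 ± 0.29 (adjusted p = 0.0841). In each the 24 h arrays lay above both 6 h arrays, as they did in 23.2% of all genes. Mbp, the major myelin basic protein, was at 8598 and 10176 at 6 h and 9265, 9044, 10176 and 9749.9 at 24 h, with a difference of 0.03 ± 0.48 (adjusted p = 0.975). Cnp, the myelin nucleotide phosphodiesterase, gave 0.11 ± 0.20 (adjusted p = 0.75), Ugt8a, which makes galactocerebroside, 0.30 ± 0.46 (adjusted p = 0.712), and Mag, an adhesion protein next to the axon, 0.60 ± 0.82 (adjusted p = 0.675). In these 4 genes the groups overlapped.

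The myelin calls depended on single arrays and on the array controls. Without the first 6 h array none of the 17 genes was called and the median difference was 0.57, with Mal at 2.41, Mog at 2.15 and Ermn at 1.69, and without the second 6 h array 6 were called with a median of 1.26. With the spike-in signal of each array as a covariate, an alternative added after the data were seen, none of the 17 was called and the median was 0.06, with Mal at 2.05, Mog at 2.07 and Ermn at 1.49. On 24 h replicates 5 and 6, Mal was at 37.6 and 9.38, Mog at 24.7 and 12.4 and Ermn at 46.3 and 9.82, all below the second 6 h array.

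**Figure D3:**
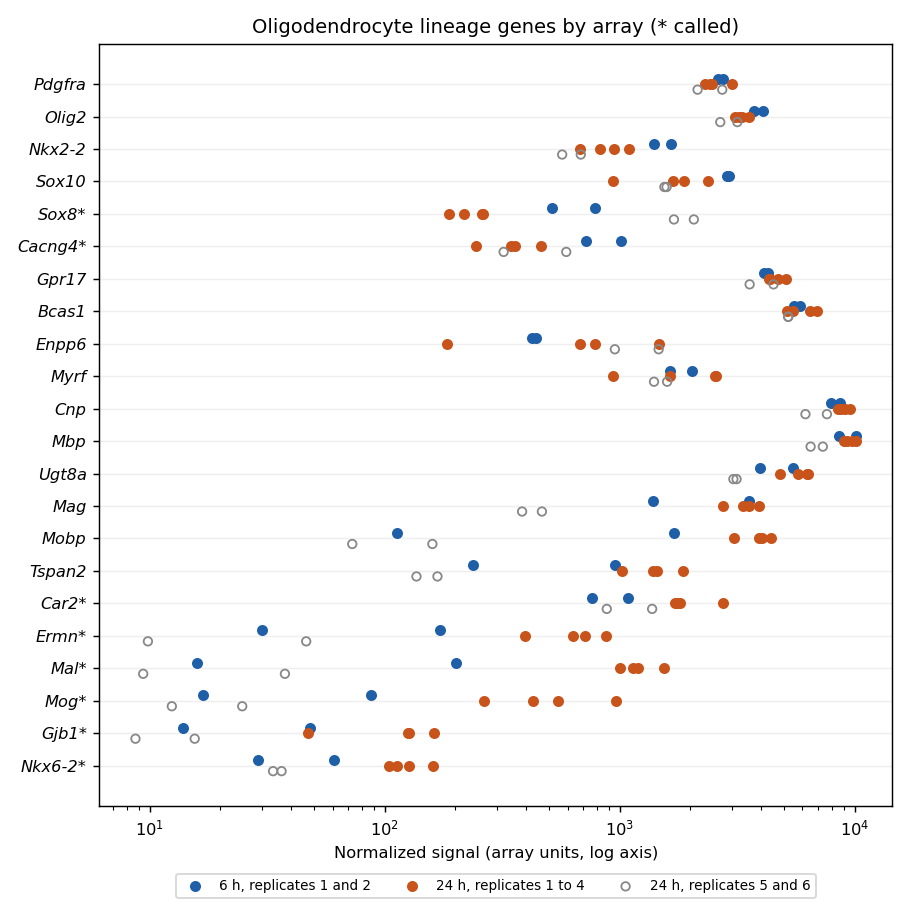
Signal of genes of the oligodendrocyte lineage on each untreated array (x axis, array units, log scale), from precursor genes at the top to late myelin genes at the bottom, with blue points for 6 h, orange for 24 h replicates 1 to 4 and open grey for 24 h replicates 5 and 6; an asterisk marks genes called between 24 h and 6 h. The orange points of Mal, Mog and Ermn lie to the right of both blue points, and those of Mbp and Cnp among them. Of the grey points of Mal, that at 37.6 lies between the blue points and that at 9.38 to their left.

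The promoters of the 3 largest rises of the myelin list are shown because these genes moved together. Each run gives the 250 bases before the start in the RefSeq table (GRCm38.p6), read 5′ to 3′ on the strand of the gene, with each CpG dinucleotide in capitals.
Mal, chr2:127656696-127656945, minus strand: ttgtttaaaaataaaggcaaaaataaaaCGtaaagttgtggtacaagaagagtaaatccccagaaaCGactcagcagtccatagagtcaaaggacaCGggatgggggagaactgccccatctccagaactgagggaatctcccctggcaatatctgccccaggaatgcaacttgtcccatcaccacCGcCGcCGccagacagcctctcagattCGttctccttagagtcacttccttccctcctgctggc
Mog, chr17:37023399-37023648, minus strand: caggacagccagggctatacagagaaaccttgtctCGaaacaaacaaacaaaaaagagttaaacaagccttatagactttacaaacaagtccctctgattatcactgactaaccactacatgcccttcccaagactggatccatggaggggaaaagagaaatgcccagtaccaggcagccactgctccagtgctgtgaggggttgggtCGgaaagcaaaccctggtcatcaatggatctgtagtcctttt
Ermn, chr2:58052865-58053114, minus strand: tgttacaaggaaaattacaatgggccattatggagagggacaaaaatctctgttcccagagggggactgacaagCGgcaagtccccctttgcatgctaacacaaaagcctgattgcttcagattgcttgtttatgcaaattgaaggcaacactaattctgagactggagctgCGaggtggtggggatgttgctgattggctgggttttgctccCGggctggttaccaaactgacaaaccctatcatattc
They held 7, 2 and 3 CpG dinucleotides. The median over the 7978 tested genes with a promoter in the table was 17, over 374 genes called higher 15, and over 479 called lower 18. The median GC content was 58.8% for genes called higher, 61.6% for genes called lower and 60.8% for all. These values are descriptions and were not tested.

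Genes of the premyelinating stage had few calls and no common direction. Of 18 measured genes 1 was called (5.56% beside 10.5% of all genes). It was Cemip2, a hyaluronidase, which fell from 699.9 and 897 to 304, 381, 469 and 336 (difference -1.04 ± 0.25, adjusted p = 0.0193). Another probe set of Cemip2 gave -0.59 (adjusted p = 0.305), overlapped and was not called. The list had 9 positive and 9 negative differences and a median of 0.00. Gpr17, a receptor that marks the stage, was at 4258 and 4120.4 at 6 h and 4383, 4738, 5096 and 4315 at 24 h, a difference of 0.14 ± 0.62 (adjusted p = 0.907). Bcas1 gave 0.06 ± 0.52 (adjusted p = 0.951) and Myrf, the transcription factor that drives myelin genes, -0.03 ± 0.60 (adjusted p = 0.979). Enpp6 was at 441 and 422 at 6 h and ranged from 184 to 1474 at 24 h, with replicate 1 lowest and replicate 3 highest, and gave 0.51 ± 0.57 (adjusted p = 0.597).

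Among 15 measured genes of the oligodendrocyte precursor list 2 fell and 1 rose (20% called beside 10.5% of all genes). Sox8, a SoxE transcription factor, fell from 514 and 788 to 188, 217, 261 and 262 (difference -1.35 ± 0.33, adjusted p = 0.0212). Cacng4, a subunit that modulates AMPA receptors, fell from 1017 and 719 to 461, 358, 246 and 346 (difference -1.24 ± 0.32, adjusted p = 0.0253), and Pcdh15, a protocadherin, rose from 80.3 and 69.7 to 174, 96.2, 281 and 247 (difference 1.04 ± 0.30, adjusted p = 0.0443). Another probe set of Cacng4 gave -0.87 (adjusted p = 0.134) and was not called. Nkx2-2, Sox10, Olig2 and Cspg4 did not pass the test. In each the 24 h arrays lay below both 6 h arrays, as they did in 18.4% of all genes. Nkx2-2 gave -0.78 ± 0.34 (adjusted p = 0.155) and Sox10 -0.81 ± 0.45 (adjusted p = 0.265). Pdgfra, the PDGF receptor of precursors, gave -0.08 ± 0.20 (adjusted p = 0.823), and Olig1 -0.10 ± 0.09 (adjusted p = 0.527), with overlapping groups. The median of the list was -0.10. On 24 h replicates 5 and 6 Sox8 was at 1702 and 2069, above both 6 h arrays.

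Most neuronal genes had negative differences, but the share called was that of all genes. Of 28 measured genes of the neuronal list 3 fell and none rose (10.7% called beside 10.5% of all genes), and 24 of the differences were negative, with a median of -0.46 beside 0.04. Tubb3, the neuronal tubulin stained in the study as a marker of newborn neurons, fell from 1426 and 930.3 to 339, 183, 403 and 572, a difference of -1.64 ± 0.36 (adjusted p = 0.0135). All 24 h arrays lay below both 6 h arrays. Nsg2, an endosomal protein of neurons, fell from 1676 and 1508 to 1154, 640.0, 951 and 1254 (difference -0.70 ± 0.20, adjusted p = 0.0416), and Slc32a1, the vesicular transporter of GABA, from 207 and 142 to 97, 57.3, 96.4 and 99.4 (difference -0.79 ± 0.24, adjusted p = 0.0475). Genes that missed the threshold included Ina, a neuronal intermediate filament, at -1.01 ± 0.33 (adjusted p = 0.0667), and Dcx, a microtubule protein of migrating neurons, at -0.42 ± 0.34 (adjusted p = 0.45). Stmn4, a stathmin, went the other way with 0.97 ± 0.32 (adjusted p = 0.0682). The list had 9 genes called with 24 h replicates 1 and 2 alone, none with replicates 3 and 4 alone and none without the first 6 h array, which leaves 1 array at 6 h. In the last 2 of these fits the differences were -1.21 and -1.34 for Tubb3, -0.53 and -0.62 for Nsg2 and -0.65 and -0.56 for Slc32a1. The groups of these 3 genes did not overlap, so the sign could hardly change in these fits. Tubb3 was at 1008 and 644 on 24 h replicates 5 and 6, Nsg2 at 1647 and 1553 and Slc32a1 at 160 and 92.

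The proneural and GABAergic fate factors had a median of -0.55 over 15 measured genes, with 12 negative and 3 positive differences. Dlx5, a homeobox factor of the ganglionic eminence, was the only call (6.67%) and fell from 279 and 205 to 77.4, 81.8, 102 and 135 (difference -1.07 ± 0.23, adjusted p = 0.012). Sox11 gave -1.19 ± 0.44 (adjusted p = 0.0966), Gsx2 -1.14 ± 0.52 (adjusted p = 0.173), Dlx2 -0.83 ± 0.51 (adjusted p = 0.31) and Dlx1 -0.72 ± 0.50 (adjusted p = 0.368). The positive differences were those of the TALE homeobox genes Meis1, at 0.33 ± 0.16 (adjusted p = 0.21), and Meis2, at 0.21 ± 0.12 (adjusted p = 0.292), and of Tcf12, at 0.11 ± 0.10 (adjusted p = 0.525). The 24 h pairs differed here. Sox11, a SoxC factor of immature neurons, was at 4229.8 and 3227 at 6 h and at 1022, 844, 2704 and 2803 at 24 h, with replicates 3 and 4 nearer to 6 h.

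Of 21 measured genes of the synapse and vesicle list 4 fell and 1 rose (23.8% called beside 10.5% of all genes), with a median of -0.11. Vamp2, the vesicle SNARE of synaptic release, fell from 1233 and 1276 to 672, 775, 554 and 581 (difference -0.94 ± 0.15, adjusted p = 0.00264), and Dlg4, the scaffold PSD-95, from 307 and 231 to 130.3, 151, 148 and 157 (difference -0.74 ± 0.12, adjusted p = 0.00314). Cplx2, a complexin that clamps fusion, had a difference of -0.67 ± 0.16 (adjusted p = 0.0203), and Syp, a vesicle membrane protein, one of -0.66 ± 0.19 (adjusted p = 0.0415). Gria3, an AMPA receptor subunit, rose from 42.2 and 72.6 to 329.8, 135, 116 and 126 (difference 1.14 ± 0.32, adjusted p = 0.0376), with replicate 1 far above the other 24 h arrays. Dlg4 on 24 h replicates 5 and 6 was at 246 and 305, within the range of 6 h.

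Nearly all cell cycle genes had negative differences, and the share called was no higher than that of all genes. In the S phase and replication list 3 of 28 measured genes fell, none rose (10.7% called beside 10.5% of all genes), 26 differences were negative, and the median was -0.39. Fen1, the flap endonuclease of lagging strands, fell from 765 and 639 to 491, 507, 487 and 463 (difference -0.49 ± 0.12, adjusted p = 0.0239). Mcm10, a replication initiation factor, had -0.63 ± 0.18 (adjusted p = 0.0446), and Ccne1, cyclin E1 of the G1 to S transition, -0.80 ± 0.24 (adjusted p = 0.0481). In the G2 and mitosis list none of 30 measured genes was called, 29 differences were negative and the median was -0.85. The smallest adjusted p was that of Aurka, a mitotic kinase, with 216 and 141 at 6 h, 58.8, 78, 74.2 and 124 at 24 h and -0.87 ± 0.33 (adjusted p = 0.11). Top2a, the topoisomerase of dividing cells, was at 1524 and 736 at 6 h and 294, 547, 398 and 672 at 24 h (-1.16 ± 0.68, adjusted p = 0.288), and Mki67, the proliferation antigen, at 550.4 and 227 at 6 h and 119, 204, 143 and 289 at 24 h (-0.88 ± 0.67, adjusted p = 0.422). In all 3 genes the first 6 h array stood above the second, and replicate 4 was the highest of the 24 h arrays. Without the first 6 h array the median of the mitosis list was -0.50, and without the second it was -1.17.

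Of 7 measured inhibitors of cyclin-dependent kinases 1 rose, Cdkn2b, which encodes p15 and holds back Cdk4 and Cdk6, from 106 and 154 to 277, 358, 330.0 and 237 (difference 1.04 ± 0.23, adjusted p = 0.0136). Cdkn1b gave 0.03 ± 0.14 (adjusted p = 0.912) and Cdkn1a 0.59 ± 0.31 (adjusted p = 0.226). Of 15 measured p53 targets 2 rose, Ccng1 by 0.66 ± 0.17 (adjusted p = 0.0243) and Rrm2b by 0.44 ± 0.13 (adjusted p = 0.0475; 0.15 and no call for its other probe set), and Btg2, an antiproliferative gene that is also in the immediate early list, fell from 909.6 and 1112 to 679, 291, 347 and 571 (difference -1.12 ± 0.26, adjusted p = 0.018). A pair of dimmer probe sets of Ccng1 were not called, at 0.09 and 0.42, nor was one of Btg2, at -0.46. The kinase inhibitor and p53 lists had 14.3% and 20% of their measured genes called, beside 10.5% of all genes.

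**Figure D4:**
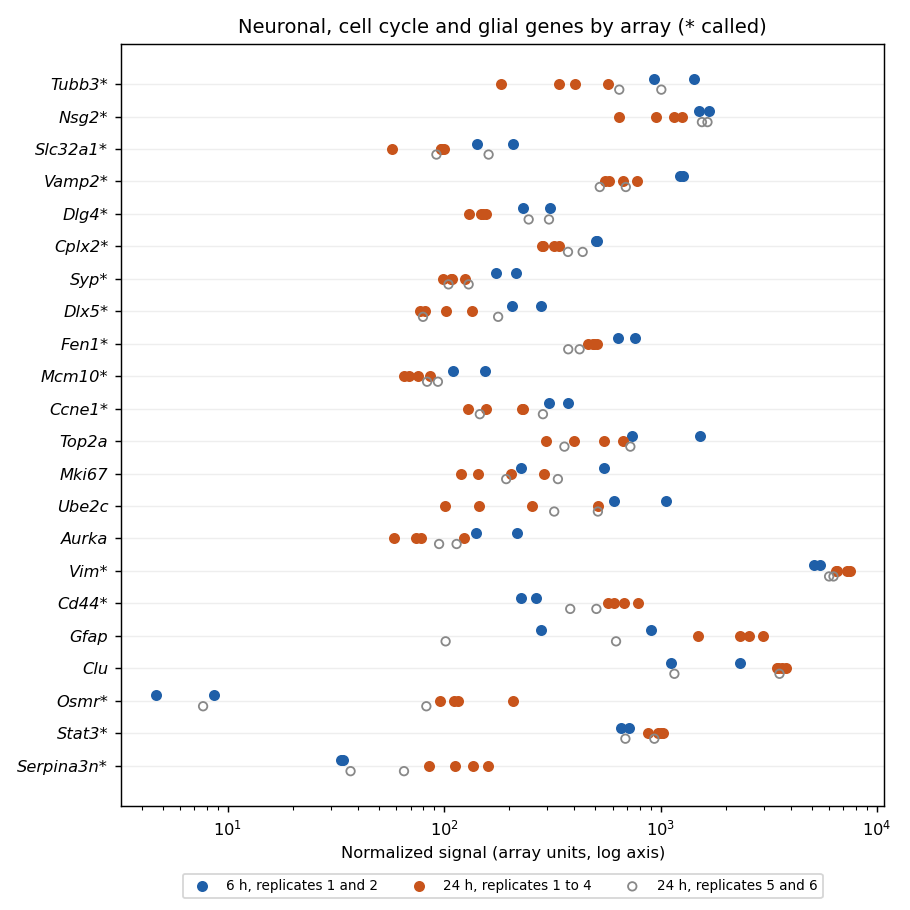
Signal of neuronal, synaptic, cell cycle, glial and cytokine receptor genes on each untreated array (x axis, array units, log scale), with blue points for 6 h, orange for 24 h replicates 1 to 4 and open grey for 24 h replicates 5 and 6; an asterisk marks genes called between 24 h and 6 h. Tubb3 lies at 930 and 1426 at 6 h and at 183 to 572 at 24 h, and Cd44 at 226 and 266 against 571 to 785.

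Astrocyte genes had 1 call among 25 measured genes (4% beside 10.5% of all genes), 20 positive differences and a median of 0.19 beside 0.04. Cd44, the hyaluronan receptor of immature astrocytes, rose from 266 and 226 to 611, 675, 571 and 785 (difference 1.31 ± 0.14, adjusted p = 0.000237), and a dimmer probe set gave 1.77. Gfap, the intermediate filament stained in the study as the astrocyte marker, was at 280.1 and 901 at 6 h and 1494, 2975, 2325 and 2564 at 24 h. Its groups did not overlap, as in 23.2% of all genes in this direction, yet with 2.09 ± 0.69 (adjusted p = 0.0661) it missed the threshold. On 24 h replicates 5 and 6 it was at 623 and 102. Over the 6 compared arrays alone and with the replicate number as a block it passed the limma test (adjusted p = 0.0464 and 0.0486). Dimmer probe sets of Gfap gave 1.51 and 2.45, overlapped and were not called. Clu gave 1.14 ± 0.48 (adjusted p = 0.137), Aqp4, the water channel of astrocyte endfeet, 0.43 ± 0.19 (adjusted p = 0.16), and Slc1a3, a glutamate transporter, -0.22 ± 0.17 (adjusted p = 0.434). In the neural stem and radial glia list 1 of 19 genes rose and 1 fell (10.5% called, as of all genes). Vim, the filament vimentin, rose from 5112 and 5438 to 7483, 6497, 6524 and 7235 (difference 0.39 ± 0.07, adjusted p = 0.00614), and Sox21, a SoxB factor, fell from 1491 and 1663 to 1180.0, 994, 1038 and 1034 (difference -0.56 ± 0.13, adjusted p = 0.0175).

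Genes called in cytokine signalling were all higher at 24 h. Of 12 measured genes of the inflammatory and JAK-STAT list 3 rose and none fell (25% called beside 10.5% of all genes, of which 4.64% rose), with a median of 0.24. Osmr and Serpina3n had 6 h means of 6.61 and 33.7. They were measured only through 24 h and could only count as higher. Osmr, the oncostatin M receptor subunit, was at 4.63 and 8.58 at 6 h and 209, 116, 112 and 96 at 24 h (difference 2.05 ± 0.41, adjusted p = 0.00803). Stat3, the transcription factor downstream of gp130 receptors, rose from 711 and 653 to 976, 871, 1007 and 1026 (difference 0.49 ± 0.14, adjusted p = 0.0409), and Serpina3n, an acute phase inhibitor made by reactive astrocytes, from 34.1 and 33.3 to 136, 159, 85.5 and 112 (difference 1.22 ± 0.32, adjusted p = 0.027). The other tested probe set of Stat3 gave 0.18 (adjusted p = 0.703) with overlapping groups. Osmr was at 82.7 and 7.68 on 24 h replicates 5 and 6, Serpina3n at 65.2 and 36.9 and Stat3 at 936 and 688. Il6st, which encodes gp130, gave 0.66 ± 0.23 (adjusted p = 0.0823), and Socs3, a feedback inhibitor, 0.46 ± 0.21 (adjusted p = 0.17). Of 26 interferon and MHC class I genes on the array 9 were measured, and of these 3 rose and none fell (33.3% called beside 10.5% of all genes). Irgm1 and Ifit2, with 6 h means of 43.0 and 51.8, were likewise measured only through 24 h. Irgm1, an immunity-related GTPase, rose from 36.2 and 49.7 to 167, 143, 108 and 137 (difference 1.18 ± 0.16, adjusted p = 0.0012), Ifit2 by 0.92 ± 0.22 (adjusted p = 0.0184) and Irf1 by 0.51 ± 0.15 (adjusted p = 0.0461), whereas the class I genes H2-K1 and H2-D1 gave 0.14 ± 0.22 (adjusted p = 0.712) and 0.06 ± 0.22 (adjusted p = 0.894). Without the first 6 h array, which leaves 1 array at 6 h, no gene of either list was called, while the differences were 1.98 for Osmr, 0.55 for Stat3, 1.23 for Serpina3n, 1.05 for Irgm1, 0.87 for Ifit2 and 0.60 for Irf1.

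The feedback genes of FGF and ERK signalling, which report the activity of the pathway that bFGF drives, had 1 call. Of 14 measured genes 1 fell and none rose (7.14% called beside 10.5% of all genes), and the median was -0.14. The call was Fgfbp3, a carrier of FGFs, with 2585 and 1296 at 6 h, 415, 450.4, 630.2 and 1306 at 24 h and -1.50 ± 0.44 (adjusted p = 0.0451), and here 24 h replicate 4 overlapped with 6 h. Etv5 and Etv4, ETS factors induced by FGF, gave -0.67 ± 0.25 (adjusted p = 0.0976) and -0.59 ± 0.25 (adjusted p = 0.146). Dusp6, the phosphatase of ERK, was at 323 and 213 at 6 h and 433, 224, 143 and 226 at 24 h (-0.12 ± 0.41, adjusted p = 0.873), and Spry2, a Sprouty inhibitor, at 1383 and 1529 at 6 h and 1337, 1226, 1474 and 1657 at 24 h (-0.04 ± 0.18, adjusted p = 0.911). Dusp4 gave -0.41 ± 0.21 (adjusted p = 0.217), Spry1 -0.43 ± 0.31 (adjusted p = 0.392), Spry4 0.19 ± 0.27 (adjusted p = 0.679), Il17rd -0.19 ± 0.21 (adjusted p = 0.576) and Phlda1 0.18 ± 0.44 (adjusted p = 0.835). Spred1 gave 0.20 ± 0.13 (adjusted p = 0.318), Spred2 -0.12 ± 0.16 (adjusted p = 0.685), Spred3 0.03 ± 0.18 (adjusted p = 0.938) and Ccnd1, cyclin D1, -0.15 ± 0.41 (adjusted p = 0.848). Dimmer probe sets of Etv5 and Spry4 gave other results. Those of Etv5 were called lower at -1.17 and -0.91, and one of Spry4 at -0.57.

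Of 15 measured growth factor receptors and ligands 2 rose, Erbb3 and Pdgfc, a PDGF ligand that rose from 166 and 219.8 to 441, 289, 379 and 288 (difference 0.75 ± 0.19, adjusted p = 0.0245); another probe set of Pdgfc gave 0.18 and was not called. Egfr, the EGF receptor, gave -0.16 ± 0.21 (adjusted p = 0.652), and Fgfr1 -0.39 ± 0.24 (adjusted p = 0.305). Among 16 measured immediate early genes Ccn2, a matricellular protein, rose from 12 and 33.7 to 384, 252, 205 and 149 (difference 2.31 ± 0.55, adjusted p = 0.0189), and Btg2 and Jund, an AP-1 subunit, fell, Jund at -0.52 ± 0.15 (adjusted p = 0.0379). Of the 16 FoxO-type quiescence genes Foxo3 was called, at 0.66 ± 0.20 (adjusted p = 0.0499), and 13 differences were positive. A second probe set of Foxo3 gave 0.05. The growth factor, immediate early and FoxO-type lists had 13.3%, 18.8% and 6.25% of their measured genes called, beside 10.5% of all genes.

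The Notch, BMP and Wnt lists had 5.88%, 5.88% and 10% of their measured genes called, beside 10.5% of all genes. Of 17 measured Notch genes Hes6, a bHLH factor that opposes Hes1, fell from 1415 and 1509 to 946, 755, 918 and 1088 (difference -0.65 ± 0.16, adjusted p = 0.0195). Of 17 genes of the BMP and TGF-beta list Nog, the secreted BMP antagonist noggin, fell from 150.3 and 97 to 42.8, 63.3, 47.9 and 57.5 (difference -0.86 ± 0.16, adjusted p = 0.00523), while Id1, a direct BMP target, gave -0.24 ± 0.29 (adjusted p = 0.629) and Id3 0.28 ± 0.42 (adjusted p = 0.707). Of 20 Wnt genes 2 rose. Wnt5b, a Wnt ligand, went from 24.4 and 25.6 to 199.7, 112, 78.6 and 113 (difference 1.42 ± 0.26, adjusted p = 0.00556), and Dkk3, a member of the Dickkopf family, from 37.7 and 39.2 to 139.7, 96.7, 93.4 and 123 (difference 1.03 ± 0.20, adjusted p = 0.00636). Axin2, a common Wnt target, gave -0.22 ± 0.15 (adjusted p = 0.355).

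Among 15 measured clock genes 2 rose and 1 fell (20% called beside 10.5% of all genes). Dbp, an output factor of the clock, rose from 235 and 388 to 749, 1071, 660.0 and 693 (difference 1.27 ± 0.28, adjusted p = 0.0136) and Nr1d2, the repressor REV-ERB beta, from 531 and 716 to 1175, 1265, 1009 and 929 (difference 0.79 ± 0.19, adjusted p = 0.0222). Csnk1e, casein kinase 1 epsilon, fell, at -0.50 ± 0.12 (adjusted p = 0.0173). The core genes Arntl, Clock and Per1 gave -0.18 ± 0.24 (adjusted p = 0.659), 0.15 ± 0.14 (adjusted p = 0.511) and -0.36 ± 0.15 (adjusted p = 0.134). On 24 h replicates 5 and 6 Dbp was at 343 and 349.8 and Nr1d2 at 611 and 532, within the range of 6 h, and a dimmer probe set of Dbp gave 0.44 and was not called.

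In lipid metabolism Srebf2, the transcription factor of sterol synthesis, fell from 1349 and 1039.6 to 627, 630.0, 495 and 602 (difference -0.98 ± 0.15, adjusted p = 0.00184), with a second probe set at -0.96. It was the only call among 21 sterol genes, whose median was -0.31. Dhcr7, which makes the last step to cholesterol, gave -1.10 ± 0.35 (adjusted p = 0.0596), and Hmgcs1 -0.27 ± 0.11 (adjusted p = 0.128). Of 16 fatty acid genes Elovl1, an elongase of very long chains, rose from 482 and 652 to 1270.2, 1064, 1250.1 and 1033 (difference 0.99 ± 0.15, adjusted p = 0.00222); 2 of its other 3 probe sets were called at 0.88 and 0.89 and the remaining one gave 0.04. Of the sterol and fatty acid lists 4.76% and 6.25% were called, beside 10.5% of all genes. In the hypoxia and glycolysis list 2 of 28 genes rose and 2 fell (14.3% called). Pfkp and Pfkl, isoforms of phosphofructokinase, went opposite ways: Pfkp rose from 70.6 and 95 to 219, 246, 156 and 186 (difference 1.02 ± 0.18, adjusted p = 0.00443) and Pfkl fell from 1282 and 784 to 349, 627, 359 and 401 (difference -1.19 ± 0.25, adjusted p = 0.00976). Ero1a, an oxidase of disulfide formation, rose by 0.59 ± 0.13 (adjusted p = 0.014), and Pkm, pyruvate kinase, fell, at -0.52 ± 0.12 (adjusted p = 0.0166). The other probe sets of Ero1a gave 0.06 and 0.17, overlapped and were not called. Mt3, the metallothionein of brain, fell from 6428 and 7544 to 2639, 2619.7, 3406 and 3784 (difference -1.17 ± 0.19, adjusted p = 0.00253), and Slc39a14, a zinc importer, rose by 0.54 ± 0.13 (adjusted p = 0.0223).

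Stress and survival genes were called in both directions. The lists of endoplasmic reticulum and cytosolic chaperones had 10% and 13.3% called and the apoptosis list 17.6%, beside 10.5% of all genes. The ATF4 and amino acid list had no call among 26 genes and the redox list none among 16, with the smallest adjusted p for Eif4ebp1 (0.70 ± 0.23, adjusted p = 0.0715) and Txn1 (-0.37 ± 0.11, adjusted p = 0.05002, just above the threshold). Of 20 chaperones of the endoplasmic reticulum Dnajc3 rose by 0.47 ± 0.13 (adjusted p = 0.0316) and Pdia4 fell, at -1.01 ± 0.29 (adjusted p = 0.0428). The other 4 tested probe sets of Dnajc3 gave 0.15 to 0.20, overlapped and were not called. Of 15 cytosolic chaperones Hspb8 rose from 29 and 50.5 to 124, 280.2, 196 and 111 (difference 1.49 ± 0.37, adjusted p = 0.0222) and Dnajb4 by 0.47 ± 0.14 (adjusted p = 0.0496). In the apoptosis list 2 of 17 genes rose and 1 fell. Fas, the death receptor, rose from 5.52 and 28.6 to 116, 113, 100.4 and 72.4 (difference 1.46 ± 0.24, adjusted p = 0.00314), Birc2, an inhibitor of apoptosis, from 367 and 444 to 1349.8, 579, 712 and 894 (difference 1.00 ± 0.23, adjusted p = 0.017), and Bak1, a pore-forming member of the Bcl2 family, fell from 347 and 314 to 161, 145, 133 and 171 (difference -0.98 ± 0.12, adjusted p = 0.000686).

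Chromatin lists had 5% and 4.55% of their measured genes called, beside 10.5% of all genes. The ribosome biogenesis, lysosome, guidance and actin lists had 3.57%, 8.33%, 13.3% and 5.56% called. Of 20 histone deacetylases and acetyltransferases Hdac7 fell from 412 and 327 to 208, 172, 138 and 145 (difference -1.02 ± 0.25, adjusted p = 0.0226), and of 22 chromatin repressors Dnmt1, the maintenance DNA methyltransferase, fell from 1005 and 628 to 349, 379, 407 and 438 (difference -0.96 ± 0.21, adjusted p = 0.0125); its other probe sets gave -0.30 and -0.29 and were not called. Among 28 genes of ribosome biogenesis and Myc targets Cad, the enzyme that starts pyrimidine synthesis, fell, at -0.55 ± 0.12 (adjusted p = 0.0145), and its other probe set gave -0.23 without a call. In the lysosome and autophagy list Ctsz, a cathepsin, rose by 1.04 ± 0.31 (adjusted p = 0.0486) and Map1lc3a, an LC3 protein of autophagosomes, fell, at -0.63 ± 0.11 (adjusted p = 0.00469), among 24 genes. Of 30 guidance genes 3 fell, Plxna1 at -0.61 ± 0.15 (adjusted p = 0.0239), Efna2 at -0.49 ± 0.12 (adjusted p = 0.0239) and Ephb3 at -0.63 ± 0.18 (adjusted p = 0.0387), and Sema3d rose from 143 and 143 to 632, 335, 286 and 302 (difference 1.20 ± 0.35, adjusted p = 0.0454). Tagln2 was the only call among 18 actin genes, lower at -0.51 ± 0.14 (adjusted p = 0.0343). The extracellular matrix list had no call among 20 genes, and its smallest adjusted p belonged to Ncan, neurocan, at -0.86 ± 0.30 (adjusted p = 0.0775).

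**Figure D5:**
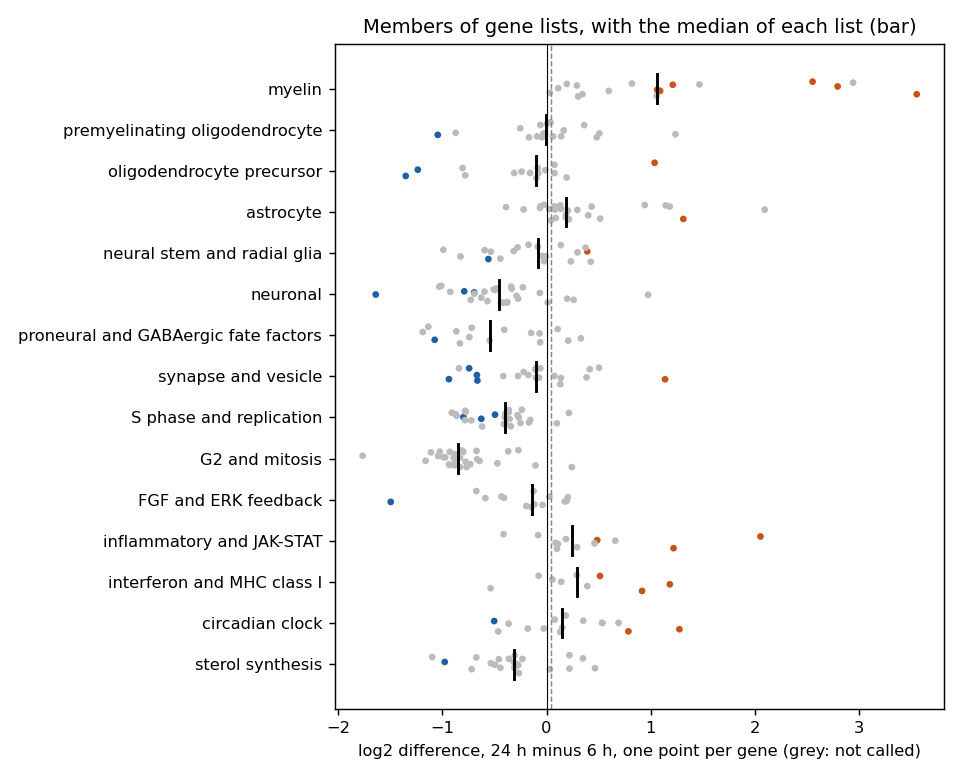
Difference between 24 h and 6 h (x axis, log2 units) for the measured members of 15 gene lists, with 1 point for each gene, orange for genes called higher, blue for genes called lower and grey for the others; the black bar is the median of the list and the dashed line the median of all genes, 0.04. The myelin bar stands at 1.06, the neuronal bar at -0.46 and the G2 and mitosis bar at -0.85, where no point is coloured.

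The largest falls were mostly outside these lists. Lrrc4b, a synaptic adhesion protein also known as NGL-3, fell from 1309.8 and 1297 to 241, 253, 335 and 391, a difference of -2.01 ± 0.18 (adjusted p = 0.000103). Ptms, parathymosin, fell from 2639 and 2338 to 509.6, 516, 720.4 and 1004 (difference -1.86 ± 0.22, adjusted p = 0.000465), and Maz, a zinc finger factor that binds GC-rich DNA, from 573 and 454 to 95.5, 136, 126 and 128 (difference -1.83 ± 0.17, adjusted p = 0.000103). In these 3 genes the groups did not overlap, which the choice of the largest falls required. Ap2a1, a subunit of the clathrin adaptor, fell from 547 and 465 to 121, 180.4, 195 and 195 (difference -1.41 ± 0.15, adjusted p = 0.000237), Scaf1, an SR-related splicing protein, from 452 and 425 to 117, 149.8, 164 and 174 (difference -1.37 ± 0.17, adjusted p = 0.000686), and Pfn1, the actin monomer binder profilin, from 2649 and 2635 to 981, 856, 620.0 and 1275 (difference -1.51 ± 0.22, adjusted p = 0.00143). Cxcl14, a chemokine, fell from 159 and 180.0 to 89.7, 18.3, 21.6 and 32.8 (difference -1.57 ± 0.34, adjusted p = 0.0124), and Nell2, a secreted neuronal glycoprotein, from 494 and 343 to 143, 73.2, 102 and 173 (difference -1.57 ± 0.31, adjusted p = 0.00769).

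Lrrc4b, Maz, Ap2a1 and Scaf1 were as low or lower on 24 h replicates 5 and 6, at 179 and 187, 124 and 112, 111 and 93.6 and 78.2 and 45.2. Pfn1 and Nell2 were not, at 2552 and 2284 and 397 and 697.

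The remaining large rises were of other kinds. S1pr3, a receptor of sphingosine 1-phosphate, went from 12.5 and 40.3 to 398, 185, 507 and 299 (difference 2.66 ± 0.67, adjusted p = 0.0234). Rcan2, an inhibitor of calcineurin, went from 58.3 and 78.7 to 597, 371, 285 and 379 (difference 2.09 ± 0.26, adjusted p = 0.000513), and Tmod1, a tropomodulin that caps actin filaments, from 20.6 and 37.3 to 228, 176, 295 and 185 (difference 2.04 ± 0.22, adjusted p = 0.000237). Rcan2 and Tmod1 were the only named rises besides Cd44 that were still called without the first 6 h array.

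Most markers of cells that the dissected tissue could carry along were low. All 12 microglial genes, all 4 measured erythroid genes and all 6 measured genes of cortical excitatory neurons were under 100 on every one of the 6 arrays, and so were 8 of 9 endothelial genes. The summed signal of the microglial list was 164 on both 6 h arrays and 140.3 to 187 at 24 h. Of 8 genes of meninges and fibroblasts 7 were under 100 on all 6 arrays, Col1a1 and Dcn among them, and Pdgfrl, the remaining one, rose from 51.5 and 74.7 to 246, 151, 171 and 121 (difference 1.08 ± 0.27, adjusted p = 0.0251). Other lists held brighter genes. Of 8 mural cell genes 5 were under 100 on all 6 arrays, Rgs5 among them, but Acta2 was at 289 to 582 and Pdgfrb at 218 to 484, and Tagln reached 225; none of these 3 was called, and the summed signal was 795 and 925 at 6 h and 742 to 1179 at 24 h. Of 8 genes of ependyma and choroid plexus 6 were under 100 on all 6 arrays, while Clic6 was at 104 to 202, without a call, and Foxj1 at 41 to 135. Xist and 3 genes of the Y chromosome were measured in both groups and none of the 4 was called. Xist split the 24 h arrays by pair, with 594 and 609 on replicates 1 and 2 and 1875 and 1781 on replicates 3 and 4, beside 1198 and 766 at 6 h. Of genes that mark the labelled origin, the ganglionic eminence, Dlx1, Dlx2, Gsx1 and Gsx2 were measured, with Dlx2 between 431 and 1628 on the 6 arrays.

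By the criteria that the methods state for treated against mock-treated cells, a fold over 2, a difference of means over 100 and 90% confidence, here applied with an unadjusted limma p under 0.1, 442 of 45037 probe sets passed, 200 higher and 242 lower, and 305 of them were also called by adjusted p. Where a called gene had further tested probe sets (368 genes, 549 probe sets), 435 had the same sign and 114 the opposite one, 129 were called the same way and 9 the opposite way. Groups without overlap were found for 1012 of the 1016 called genes and for 4041 of all 9715 tested (41.6%), 23.2% higher and 18.4% lower.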

How the data were processed

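Total RNA was labelled with biotin and hybridised to Affymetrix Mouse Genome 430 2.0 arrays, 1 sample per array. The deposited values are intensity signals of 45101 probe sets, which the submitters' processing notes credit to MAS5 and the methods of the study to dChip with quantile normalization; the authors gave no detection calls in the table used here. The deposited medians of the 6 compared arrays were 36.4 to 40.7, so the values were on a similar scale before any step here.

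Here the signals of the 18 arrays were quantile normalized, 32 was added, and log2 values were fitted with limma 3.58.1 in R 4.3.3 (lmFit, eBayes with trend) with 7 groups and 1 estimate of the spread. The 64 control probe sets were left out. Tests were run on probe sets whose mean signal reached 100 at 6 h or in replicates 1 to 4 at 24 h, and a Benjamini-Hochberg adjusted p under 0.05 over all of them was a call. On simulated data for this comparison, a small part of the 17518 probe sets was made to differ by 0.5, 1 or 2 log2 units. The fit called 10.6%, 74.6% and 95.5% of these. The simulated arrays varied independently, whereas arrays of equal number and time deviated together in the data. These shares may therefore not hold for the data.

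Of 45101 probe sets, 34958 had 1 gene in the platform table (34754 matched by Entrez ID), 932 several and 9211 none. The last 2 kinds were not named. A gene was taken by the probe set with the highest mean over all arrays. Named genes were the 10 largest rises and falls without overlap of the groups, up to 3 called members of each list in each direction, all members of a count of 5 or fewer (which added Syp and Pdgfrl), the stained markers, the FGF feedback genes and the member with the smallest adjusted p of lists without a call, predicted genes and clones passed over among the rises and falls; the called genes Car2 and Gjb1 and further members without a call were named after their values were seen. Promoter motifs planned for lists with at least 5 called members in 1 direction were not counted, since no list with a planned motif reached that number. The members compared and the gene lists were chosen with earlier results of these data known. Alternatives were no normalization, median scaling, other added constants and filters, other samples, blocks, probe set rules, and each array left out in turn. The number of arrays limits the precision.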

Additional observations from a re-analysis of the deposited data

Results flagged for a closer look

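In 7 of the 105 named genes 1 of the 4 arrays at 24 h stood apart from the other 3, by a gap to the nearest of them, as a share of the range of the 4, above the 95% critical value of Dixon's test. Chance gives this in about 1 in 20 groups. For Slc32a1 the gap was 0.940 of the range, with replicate 2 at 57.3 and the others at 96.4 to 99.4. For Pdia4 it was 0.918, with replicate 1 at 186 and the others at 121 to 125. For Car2 it was 0.887, with replicate 1 at 2757 and the others at 1716 to 1811. For Gria3 it was 0.862, with replicate 1 at 329.8 and the others at 116 to 135. For Pkm it was 0.850, with replicate 4 at 2534 and the others at 2205 to 2251. For Foxo3 it was 0.843, with replicate 4 at 753 and the others at 915 to 948. For Ap2a1 it was 0.834, with replicate 1 at 121 and the others at 180.4 to 195. All 7 genes were called, and replicate 1 was the array apart in 4 of them, replicate 4 in 2 and replicate 2 in 1.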

How the results depend on the processing

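Of the alternatives that left out no single array, 12 kept the number of called probe sets within 1.5 times of 1734. A similar number did not mean the same probe sets. The spike-in covariate, 1 of the 12, gave 1385 calls, of which 141 higher and 331 lower ones were shared with the main fit. Among the 86 called genes named in the report only the use of 24 h replicates 5 and 6 for replicates 1 to 4 changed a sign. For genes whose groups did not overlap, most of the other alternatives could hardly change it. The 2 arrays at 6 h and the signal of dim probe sets, for which no detection call was used here, limit the precision. Where counts moved, the cause was not tested, unless fewer arrays or more probe sets are named. Median scaling gave 1195 higher and 712 lower probe sets, and 788 genes higher. Without a filter on dim probe sets, which raises the number tested, there were 962 probe sets (336 higher and 626 lower, with 199 and 314 genes). With fewer arrays in the fit there were 794 probe sets (279 higher and 515 lower, with 167 and 288 genes) over the 6 arrays alone and 926 probe sets (349 higher and 577 lower, with 220 and 324 genes) over the 8 controls. With all 6 controls of 24 h as 1 group there were 887 probe sets (300 higher and 587 lower, with 192 and 283 genes), and with 24 h replicates 5 and 6 in place of 1 to 4 there were 3599 (1701 higher and 1898 lower), 897 genes higher and 1370 probe sets past the criteria of the study. Taking 1 probe set a gene gave 1090 calls (595 lower), and averaging the probe sets of a gene 1048 (411 higher and 637 lower), over fewer features. Chosen after seeing the data, 24 h replicates 1 and 2 alone gave 1066 higher probe sets, 683 higher genes and 824 past the criteria of the study, replicates 3 and 4 alone gave 812 probe sets (238 higher and 574 lower, with 146 and 325 genes), and the spike-in covariate gave 336 lower genes.

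The replicate numbers did not pair the 6 h with the 24 h arrays: deviations from the group means correlated at 0.08 and 0.01 at equal numbers. With the replicate number as a block, the fit gave 4632 probe sets (2183 higher and 2449 lower, with 1353 and 1244 genes). With a random block of arrays of equal number and time (consensus correlation 0.529) 1470 probe sets were called.

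Leaving out each of the 6 arrays in turn gave 55 to 1564 called probe sets, 8 to 621 higher and 47 to 943 lower, 5 to 391 genes higher and 27 to 522 lower, and 312 to 751 past the criteria of the study. The first 6 h array decided the lower end (55 probe sets), followed by the second (431) and by 24 h replicate 1 (983); without 24 h replicate 2, 445 probe sets were higher. The criteria of the study gave their highest count, 751, without the second 6 h array. Genes without a call changed sign in this series of fits, with ranges of -0.27 to 0.041 for Spred2, -0.38 to 0.73 for Phlda1, -0.35 to 0.052 for Ccnd1, -0.39 to 0.14 for Dusp6, -0.091 to 0.15 for Mbp, -0.13 to 0.52 for Spry4, -0.11 to 0.032 for Spry2 and -0.10 to 0.15 for Spred3.

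Other changes of sign were differences on the log2 scale. With 24 h replicates 5 and 6 they were Mal -0.98, Ermn -0.98, Erbb3 -1.16, Nell2 0.33, Sox8 1.51, Etv4 0.047, Spred1 -0.16, Il17rd 1.00, Spred2 0.20, Phlda1 -0.55, Dusp6 0.53, Spry2 0.22, Btg2 0.49, Hes6 0.26, Nsg2 0.0085, Dlg4 0.035, Pdia4 1.02, Txn1 0.12, Nr1d2 -0.11, Birc2 -0.085, Plxna1 0.064, Gfap -0.87 and Mbp -0.44, and 13 of these genes were called with replicates 1 to 4. The others were all genes without a call. With all 6 controls of 24 h they were Il17rd 0.20, Phlda1 -0.068, Dusp6 0.094, Spry2 0.048 and Mbp -0.13; with median scaling Spred2 0.0031 and Spry2 0.078; without normalization Spry2 0.015; with the replicate block Phlda1 -0.16, Ccnd1 0.25 and Dusp6 0.15; with the mean over probe sets Spred1 -0.12 and Spry4 -0.19; with 24 h replicates 1 and 2 alone Phlda1 -0.16, Ccnd1 0.13, Dusp6 0.23 and Mbp -0.031; with replicates 3 and 4 alone Spred2 0.028 and Spry2 0.10; and with the spike-in covariate Spry2 0.24, Spred3 -0.16 and Mbp -1.48.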
